A study of Drosophila melanogaster with 48 samples.

Results

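The genes described here encode the aminoacyl-tRNA synthetases of Drosophila melanogaster, and they were chosen by name: every FlyBase symbol made of an amino acid code followed by RS, with -m added for the enzyme of the mitochondrion. Of the symbols known to FlyBase, 33 have this form. The deposited gene tables hold 31 of them among 15065 genes, 17 cytosolic and 14 mitochondrial, and LeuRS and PheRS-m were not analysed here because their identifiers did not match a row. The rule uses no measured value. The class was read from the symbol alone, and genes without -m are called cytosolic here. The 33 symbols include no -m form of LysRS, GlyRS, HisRS or ThrRS. Whether these genes also serve the mitochondrion was not examined. All 31 genes passed the filter on low counts in each of the 3 library sets that were tested.

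An aminoacyl-tRNA synthetase joins an amino acid to the tRNAs that carry its anticodons, and so sets the supply of charged tRNA on which the ribosome depends. Cytosolic and mitochondrial enzymes are both encoded in the nucleus, and most mitochondrial enzymes serve only the small set of proteins made inside the organelle. Several cytosolic synthetases assemble with scaffold proteins into a multisynthetase complex. The exosome, the target of the study, trims and degrades RNA from its 3′ end; Csl4 and Rrp40 are subunits of its cap, and Rrp6 is the exonuclease bound to its nuclear form.

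S2 and S3 are Drosophila cell lines that the labels give as late embryonic. By nucleofection the cells received 2 ug of dsRNA directed at Csl4, Rrp40, Rrp6 or, as the control, GFP, which Drosophila cells do not encode, and were collected on day 5. RNA was either selected for poly(A) tails, called polyadenylated here, or depleted of rRNA with the RiboMinus kit, called depleted here. In polyadenylated RNA of S2 cells there were 2 libraries each for GFP, Csl4 and Rrp6 dsRNA and 1 for Rrp40; in polyadenylated RNA of S3 cells there were 3 for GFP and 2 for each knockdown; in depleted RNA of S3 cells there were 2 per group, and in depleted RNA of S2 cells 1 per group. By the labels, replicate 2 of each group in depleted S3 RNA is 2 technical replicates, which form 1 library here. The same holds for replicate 2 of GFP and Rrp40 dsRNA in polyadenylated S3 RNA. GFP replicates of the polyadenylated sets are named by number. The other libraries are named deeper or shallower, since the deposited group means do not tell which replicate is which. Bulk RNA of a culture was measured, so less RNA per cell and fewer cells of a type cannot be told apart.

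Depth varied widely, from 67743 to 69426568 reads in genes over the 28 libraries. The mean level of the targeted gene was higher, not lower, with its own dsRNA than with GFP dsRNA in 12 of 12 pairs of target and library set, with ratios of means from 1.63 to 1776. The libraries did not all follow the mean: in polyadenylated S2 RNA those labelled Csl4 stood at 41.3 and 236 for Csl4, beside 83.5 to 86.2 with GFP. For Csl4 in depleted S2 RNA the GFP library held 0 such reads. The knockdowns were checked on Western blots, per the labels' protocols, and libraries are called here by their labels. Of 6 hemocyte markers, for which S2 cells are known, NimC1 had 0 to 5 reads in the S2 polyadenylated GFP libraries and the other 5 were detected in both. The summed level of the 6 was 570 to 1217 scaled RPM (reads per 1000000) in S2 GFP and 2823 to 3406 in S3 polyadenylated GFP libraries, and Pxn made up 2210 to 2629 of the latter. Hml went the other way, at 317 and 35.9 in S2 GFP replicates 1 and 3 and 25.2 to 55.3 in S3 GFP libraries.

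Levels are scaled RPM, that is, a gene's share of all reads in genes of its library, scaled by TMM within a library set; gene length does not enter, so they compare libraries and not genes. Changes are log2 ratios to GFP dsRNA ± SE from edgeR's quasi-likelihood test, fitted to all libraries of a set with the depth class of the library as a block. A gene is called when its p-value, adjusted over all genes tested by the Benjamini-Hochberg method, is at most 0.05. What the p-values weigh is the scatter among these libraries, which may be partly technical, once the common difference between deep and shallow ones is removed. Much of that scatter is estimated jointly over genes. Residual degrees of freedom were 2, 4 and 3 in polyadenylated S2, polyadenylated S3 and depleted S3 RNA. The prior ones (medians), which stand for the spread shared over genes, were 20.4, 6.09 and infinite in the same order. In depleted S3 RNA a gene's own scatter therefore had no weight in its p-value or SE. The depth block weighs on the counts: without it, 0 of the 31 genes were called in polyadenylated S2, 1 in polyadenylated S3 and 0 in depleted S3 RNA with Rrp6 dsRNA.

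With Rrp6 dsRNA, a minority of synthetase genes were called lower and 0 were called higher. In polyadenylated S2 RNA, 6 of 31 were called lower, 3 cytosolic (ArgRS, AsnRS, IleRS) and 3 mitochondrial (TyrRS-m, ArgRS-m, CysRS-m). This is 19.4% of the synthetases, beside 16.9% of the 7905 genes tested that were called lower and 20.2% that were called higher. In polyadenylated S3 RNA, 5 of 31 were called lower, 3 cytosolic (ArgRS, AsnRS, IleRS) and 2 mitochondrial (TyrRS-m, SerRS-m), 16.1% beside 16.4% of the 7923 genes tested; 19.7% of all genes were called higher. In depleted S3 RNA, 2 of 31 were called lower (AsnRS and ThrRS, both cytosolic), 6.45% beside 7.35% of 8286 genes, with 12.4% of all genes called higher. The share called lower was therefore near that of all genes in each set. Of the 31, 0 were called higher in these edgeR fits, and DESeq2 called 0, 2 and 0 higher. At an unadjusted p of at most 0.05 the counts of higher genes were 0, 3 and 1 and those of lower genes 8, 9 and 2, in the same order of sets.

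**Figure D1:**
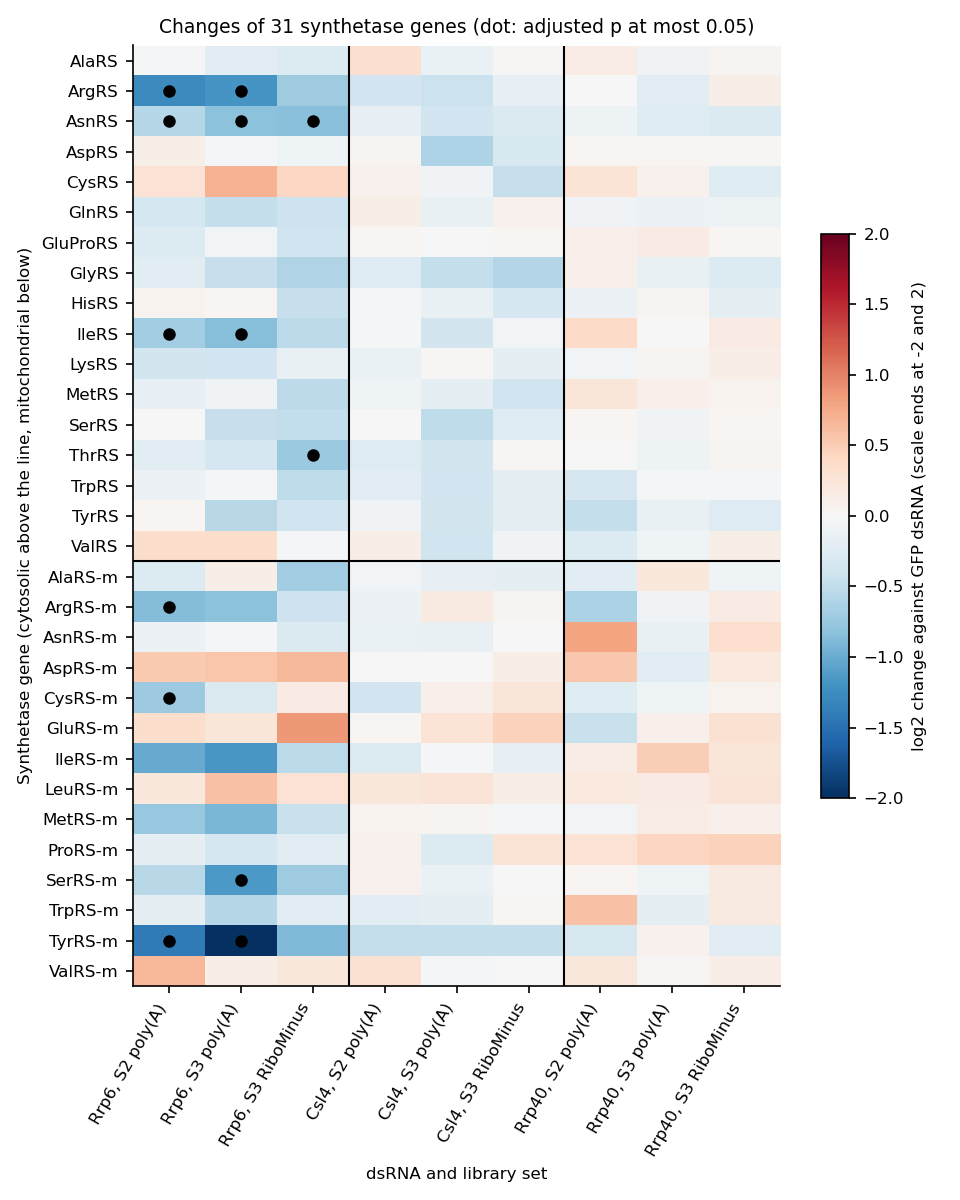
Log2 change against GFP dsRNA (colour; the scale ends at -2 and 2) of the 31 synthetase genes in rows, for Rrp6, Csl4 and Rrp40 dsRNA in 3 library sets in columns; a dot marks an adjusted p of at most 0.05. All 13 dots lie in the Rrp6 columns and mark decreases, 6 in polyadenylated S2, 5 in polyadenylated S3 and 2 in depleted S3 RNA.

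In all, 8 genes were called lower in at least 1 set with Rrp6 dsRNA, 4 cytosolic and 4 mitochondrial, and 23 were called in 0 of the 3 sets. AsnRS was called lower in all 3 sets, and ArgRS, AsnRS, IleRS and TyrRS-m in both polyadenylated sets. The matching shares of all genes called in several sets were not counted, so these counts over sets are description only. Negative changes in all 3 sets were found for 19 genes, 61.3% of the 31, beside 36.5% of the 7162 genes tested in all 3 sets. Of these 19, 12 were called in 0 sets. Another 5 of the 31 had a positive change in all 3 sets (CysRS, AspRS-m, GluRS-m, LeuRS-m and ValRS-m), beside 30.6% of the 7162 genes. The other 7 had changes of mixed sign.

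ArgRS, the cytosolic enzyme that charges arginine tRNAs, had the largest decrease of the cytosolic genes in both polyadenylated sets. In polyadenylated S2 RNA it stood at 130 and 61.4 scaled RPM in GFP replicates 1 and 3, and at 45.0 and 36.2 in the deeper and shallower Rrp6 libraries. In polyadenylated S3 RNA the GFP libraries gave 97.4, 129 and 76.4 (replicates 1, 2 and 3) and the Rrp6 libraries 44.5 and 40.4. Every Rrp6 library lay below every GFP library in both lines, and the shallower library was the lower of each group in S2 cells. The log2 change was -1.28 ± 0.25 in S2 (edgeR adjusted p 0.00049) and -1.18 ± 0.29 in S3 cells (edgeR adjusted p 0.0111). The call ended in S2 cells without GFP replicate 1 or without the deeper Rrp6 library, and in S3 cells without the deeper Rrp6 library. Over the libraries left out in turn, the change lay from -1.54 to -0.79 in S2 and from -1.59 to -0.94 in S3 cells. In depleted S3 RNA the levels were 77.5 and 49.1 with GFP and 44.1 and 46.6 with Rrp6 dsRNA, a change of -0.71 ± 0.37 that was not called (edgeR adjusted p 0.166).

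AsnRS, which charges asparagine tRNA in the cytosol, fell in all 3 sets. Its levels in polyadenylated S2 RNA were 305 and 272 in GFP replicates 1 and 3 and 221 and 166 in the deeper and shallower Rrp6 libraries. In polyadenylated S3 RNA they were 312, 337 and 199 in GFP replicates 1, 2 and 3 and 195 and 108 with Rrp6 dsRNA. The groups did not overlap in either line, but in S3 cells GFP replicate 3 and the deeper Rrp6 library lay side by side. In depleted S3 RNA the levels were 336 and 147 with GFP and 157 and 131 with Rrp6 dsRNA, and the groups overlapped; each Rrp6 library lay below the GFP library of its own depth class. The changes were -0.58 ± 0.21, -0.83 ± 0.24 and -0.84 ± 0.31 (edgeR adjusted p 0.0317, 0.022 and 0.0422). In polyadenylated S2 RNA the call ended without either GFP library, either Rrp6 library or the deeper Csl4 library, in polyadenylated S3 RNA without GFP replicate 1 or 2, and in depleted S3 RNA without the deeper library of any of the 4 groups or the shallower Csl4 library.

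IleRS, the cytosolic enzyme for isoleucine tRNAs, differed most clearly in S3 cells. The polyadenylated S3 levels were 139, 179 and 155 in GFP replicates 1, 2 and 3 and 100.2 and 73.1 with Rrp6 dsRNA, so that both Rrp6 libraries lay below all GFP libraries. In polyadenylated S2 RNA the deep libraries held 143 (GFP) and 71.1 (Rrp6) and the shallow ones 44.0 and 42.9, and the groups overlapped. The change was -0.85 ± 0.25 in S3 (edgeR adjusted p 0.0265) and -0.69 ± 0.26 in polyadenylated S2 RNA (edgeR adjusted p 0.0411). The S3 call ended without GFP replicate 1 or 2, and the S2 call without GFP replicate 1, the deeper Csl4 or the deeper Rrp6 library; without the deeper Rrp6 library the S2 change was -0.11. In depleted S3 RNA the levels were 191 and 316 with GFP and 150 and 187 with Rrp6 dsRNA (change -0.52 ± 0.30, edgeR adjusted p 0.237).

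ThrRS, which charges threonine tRNAs in the cytosol, was called in depleted S3 RNA, where it stood at 387 and 351 with GFP and 236 and 187 with Rrp6 dsRNA. The 2 groups did not overlap. The change was -0.74 ± 0.28 (edgeR adjusted p 0.0461), and the call ended without the deeper GFP or Rrp40 library or without any of the Csl4 or Rrp6 libraries. In polyadenylated RNA its changes were -0.22 ± 0.19 in S2 and -0.34 ± 0.34 in S3 cells, and neither was called (edgeR adjusted p 0.377 and 0.458).

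TyrRS-m, the mitochondrial enzyme for tyrosine tRNA, had the largest decrease of all 31 genes. In polyadenylated S2 RNA it stood at 32.1 and 37.1 scaled RPM in GFP replicates 1 and 3 and at 13.3 and 10.7 in the deeper and shallower Rrp6 libraries. In polyadenylated S3 RNA the 3 GFP libraries were close together, at 29.7, 30.2 and 32.4 (replicates 1, 2 and 3), and the Rrp6 libraries held 5.83 and 12.5. Both groups of Rrp6 libraries lay well below all GFP libraries of their line. The change was -1.41 ± 0.32 in S2 (edgeR adjusted p 0.00145) and -2.03 ± 0.32 in S3 cells (edgeR adjusted p 0.00149). Each call held when any library was left out, with changes from -1.72 to -1.34 in S2 and from -2.56 to -1.55 in S3 cells. The S3 call was the only synthetase call with Rrp6 dsRNA that also held without the depth block. In depleted S3 RNA the levels were 22.2 and 28.1 with GFP and 12.2 and 9.33 with Rrp6 dsRNA; the shallower libraries held 4 reads and 1 read, and the change of -0.88 ± 0.56 was not called (edgeR adjusted p 0.286). The annotation places TyrRS-m over CG3594, which was also called lower in S2 (-0.66, edgeR adjusted p 0.0264) and changed by -0.78 ± 0.39 in polyadenylated S3 RNA (edgeR adjusted p 0.140). No source used here gives the strand setting of the counting, so reads of these 2 genes may not be told apart.

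**Figure D2:**
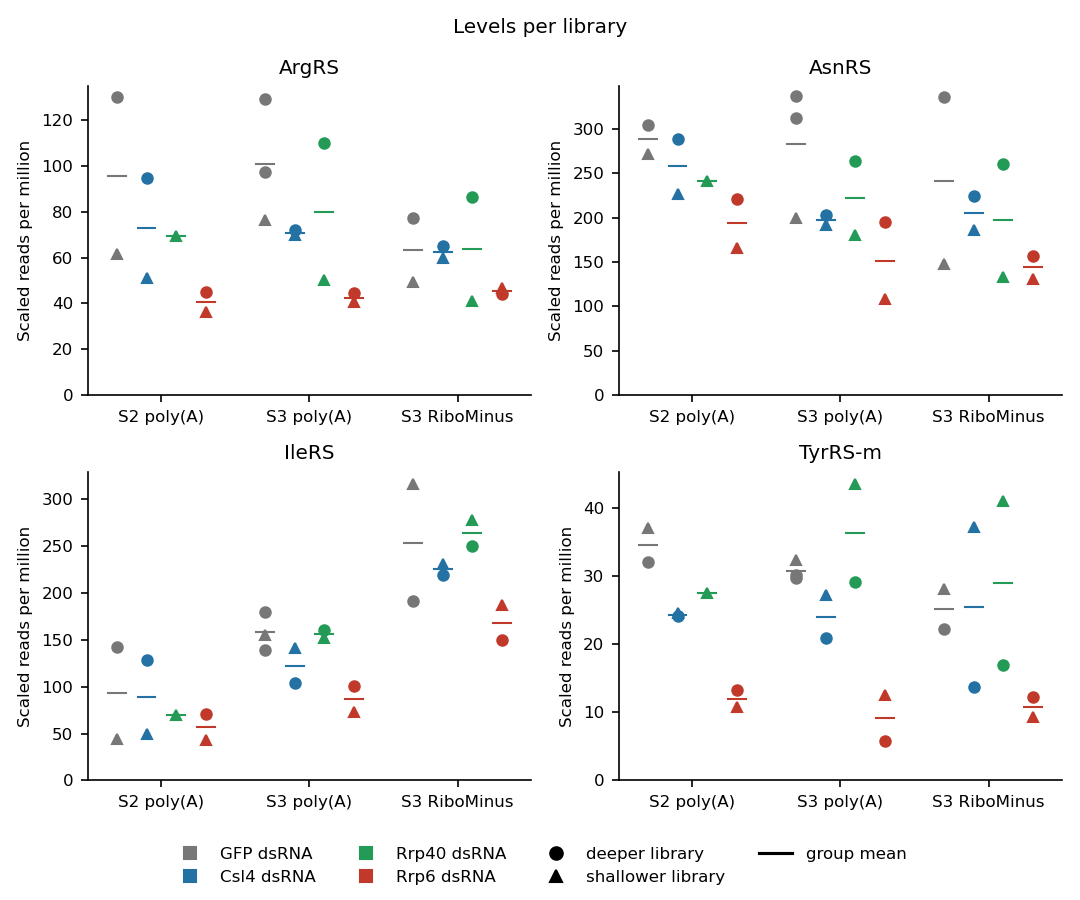
Scaled RPM (linear axis from 0) of ArgRS, AsnRS, IleRS and TyrRS-m in each library of 3 sets; circles are deeper and triangles shallower libraries, colours are the dsRNA and bars are group means. The Rrp6 libraries of TyrRS-m, from 5.83 to 13.3, lie below every GFP library, from 22.2 to 37.1, in all 3 sets, whereas the IleRS groups of polyadenylated S2 RNA overlap.

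The other mitochondrial genes called lower were each called in a single set. ArgRS-m, for arginine tRNA, stood at 24.7 and 26.6 with GFP and 15.5 and 9.39 with Rrp6 dsRNA in polyadenylated S2 RNA, and CysRS-m, for cysteine tRNA, at 40.0 and 34.8 with GFP and 24.5 and 20.1 with Rrp6 dsRNA. Neither pair of groups overlapped, and the shallower Rrp6 libraries held 7 and 15 reads. The changes were -0.87 ± 0.34 and -0.73 ± 0.28 (edgeR adjusted p 0.0471 and 0.0464), and both calls ended without either GFP library, either Rrp6 library or the deeper Csl4 library. SerRS-m, for serine tRNAs, stood at 24.1, 31 and 38.8 in GFP replicates 1, 2 and 3 of polyadenylated S3 RNA and at 12.5 and 17.3 with Rrp6 dsRNA, again without overlap. Its change was -1.14 ± 0.35 (edgeR adjusted p 0.0285), and the call ended without GFP replicate 1 or 2 or the deeper Rrp6 library. Uncalled sets could also lie lower. SerRS-m stood at 21.3 and 21.5 with Rrp6 dsRNA in polyadenylated S2 RNA, beside 27.6 and 41.7 with GFP. In depleted S3 RNA it stood at 18.7 in both, beside 30.0 and 35.1. ArgRS-m there stood at 18.7 and 20.1, beside 25.5 and 28.1. The groups overlapped for ArgRS-m in polyadenylated S3 RNA and for CysRS-m in both S3 sets. All 3 overlap another gene in the annotation: mRpS9 was called lower with ArgRS-m (-0.75, edgeR adjusted p 0.0133), while CG13016 beside CysRS-m and Nagk beside SerRS-m changed by -0.09 and -0.31 in the same sets (edgeR adjusted p 0.838 and 0.546).

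IleRS-m and MetRS-m had larger changes than some called genes and missed the threshold. IleRS-m stood at 17.0 and 10.4 with GFP and 7.74 and 6.71 with Rrp6 dsRNA in polyadenylated S2 RNA, where the shallow libraries held 9 and 5 reads, and changed by -1.01 ± 0.42 in S2 and -1.16 ± 0.53 in S3 cells (edgeR adjusted p 0.0634 and 0.112). MetRS-m changed by -0.75 ± 0.31 and -0.91 ± 0.36 (edgeR adjusted p 0.0561 and 0.0708). In S3 cells its Rrp6 libraries stood apart, with 29.5 in the deeper and 167 in the shallower, beside 83.4, 101 and 198 in GFP replicates 1, 2 and 3, so the groups overlapped.

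The highest change differed from set to set. It was 0.66 ± 0.40 for ValRS-m in polyadenylated S2 (edgeR adjusted p 0.194), 0.69 ± 0.27 for CysRS, the cytosolic cysteine enzyme, in polyadenylated S3 (edgeR adjusted p 0.0732) and 0.86 ± 0.66 for GluRS-m in depleted S3 RNA (edgeR adjusted p 0.403). AspRS-m, the mitochondrial aspartate enzyme, was near the top in all 3 sets. AspRS-m stood at 121, 119 and 166 in GFP replicates 1, 2 and 3 of polyadenylated S3 RNA and at 223 and 169 with Rrp6 dsRNA. Its changes were 0.53 ± 0.26, 0.55 ± 0.24 and 0.64 ± 0.30 in polyadenylated S2, polyadenylated S3 and depleted S3 RNA (edgeR adjusted p 0.116, 0.101 and 0.115). LeuRS-m changed by 0.58 ± 0.22 in polyadenylated S3 RNA (edgeR adjusted p 0.0622). None of these changes was called. GluRS-m, for glutamate tRNA in the mitochondrion, shows how far libraries of a group could lie apart: its Rrp6 libraries of polyadenylated S2 RNA stood at 13.0 (deeper) and 72.4 (shallower), and its GFP libraries at 16.0 and 32.4. Its Rrp6 libraries of depleted S3 RNA stood at 9.78 (deeper) and 65.3 (shallower, 7 reads), beside 8.08 and 7.02 (1 read) with GFP.

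Of the cytosolic genes not yet described, 0 were called with Rrp6 dsRNA. These are AlaRS, AspRS, GlnRS, GlyRS, HisRS, LysRS, MetRS, SerRS, TrpRS, TyrRS and ValRS, each for the amino acid in its name, and GluProRS, a fused enzyme that charges both glutamate and proline tRNAs. Their changes ran from -0.36 (GlnRS and LysRS) to 0.35 (ValRS) in S2 and from -0.55 (TyrRS) to 0.35 (ValRS) in S3 cells. All of them lay below zero in depleted S3 RNA, from -0.60 (GlyRS) to -0.02 (ValRS). A small change could average libraries that moved in opposite directions. In polyadenylated S3 RNA ValRS stood at 179, 203 and 340 in GFP replicates 1, 2 and 3 and at 432 in the deeper and 162 in the shallower Rrp6 library, log2 ratios within the depth class of 1.18 and -1.08. AspRS likewise gave 0.81 in the deeper and -1.52 in the shallower class. Other uncalled genes moved in 1 direction. GlnRS and GlyRS lay below every GFP library with Rrp6 dsRNA in all 3 sets. Their ratios in polyadenylated S3 RNA were -0.50 and -0.42 (GlnRS) and -0.27 and -0.73 (GlyRS) in the deeper and shallower class. They were negative in both classes of the other sets too. CG11858, which the annotation places over GlnRS, was called lower in both polyadenylated sets. TyrRS, the cytosolic counterpart of TyrRS-m, stood at 112, 129 and 199 in GFP replicates 1, 2 and 3 of polyadenylated S3 RNA and at 85.5 and 127 with Rrp6 dsRNA, so that the groups overlapped, and its change of -0.55 ± 0.21 was not called (edgeR adjusted p 0.0681). HisRS stood at 216 and 447 in GFP replicates 1 and 3 of polyadenylated S2 RNA and at 246 and 430 in the deeper and shallower Rrp6 libraries, so that libraries of the same depth class lay closer together than libraries of the same dsRNA. Among mitochondrial genes, AlaRS-m, AsnRS-m, ProRS-m, TrpRS-m and ValRS-m were also not called, with changes from -0.27 to 0.66 in S2, from -0.58 to 0.14 in polyadenylated S3 and from -0.69 to 0.23 in depleted S3 RNA. TrpRS-m, for tryptophan tRNA, stood at 46.4, 43.4 and 51.8 in GFP replicates 1, 2 and 3 of polyadenylated S3 RNA and at 33.0 and 28.9 with Rrp6 dsRNA, without overlap, and its change of -0.58 ± 0.23 missed the threshold (edgeR adjusted p 0.0777).

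**Figure D3:**
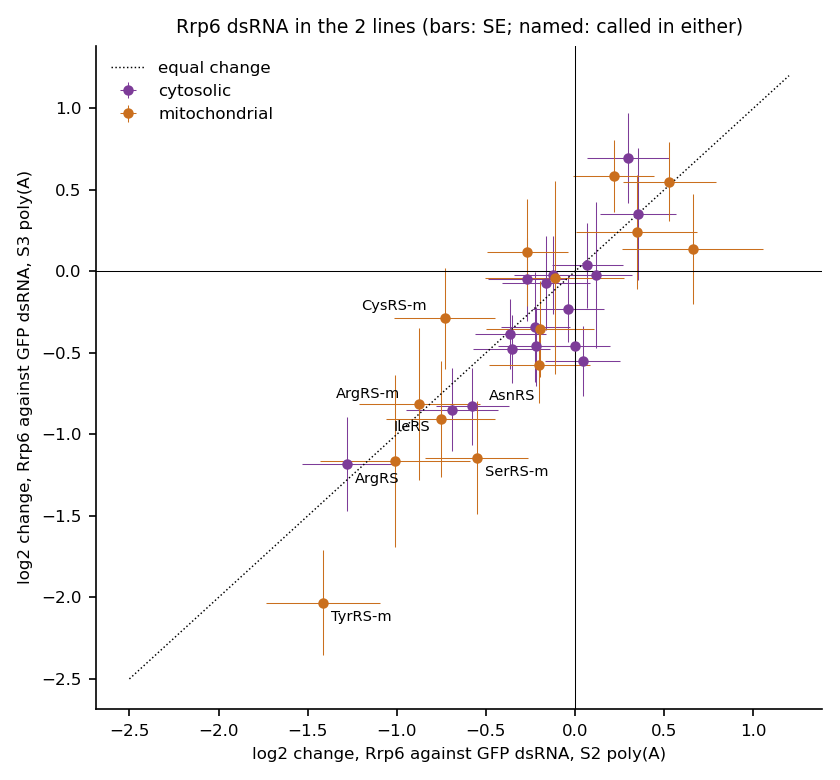
Log2 change with Rrp6 dsRNA in polyadenylated S3 RNA (vertical axis) against polyadenylated S2 RNA (horizontal axis) for the 31 synthetase genes, with SE bars; genes called in either line are named and the dotted line marks equal change. TyrRS-m (-1.41 and -2.03) and ArgRS (-1.28 and -1.18) lie farthest toward the lower left; the GFP libraries of the 2 lines are separate.

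In polyadenylated RNA the medians of the cytosolic and mitochondrial genes with Rrp6 dsRNA lay close together. The median change of the cytosolic genes was -0.16 in S2 and -0.34 in polyadenylated S3 RNA, and that of the mitochondrial genes -0.23 and -0.32, beside medians of -0.05 and 0.01 over all genes tested. In depleted S3 RNA the medians were -0.46 for cytosolic and -0.25 for mitochondrial genes, beside 0.07 over all genes. The mitochondrial genes spread more widely, from -1.41 to 0.66 in S2, -2.03 to 0.58 in polyadenylated S3 and -0.88 to 0.86 in depleted S3 RNA, where the cytosolic ranges were -1.28 to 0.35, -1.18 to 0.69 and -0.84 to 0.41. They also held fewer reads: in the shallower Rrp6 library of depleted S3 RNA all 14 together held 70 reads, against 281 for the 17 cytosolic genes. Summed over the class, the cytosolic genes stood at 4067 and 3691 scaled RPM in GFP replicates 1 and 3 of polyadenylated S2 RNA and at 3675 and 3316 with Rrp6 dsRNA. The summed levels in polyadenylated S3 RNA were 3482, 3864 and 4039 in GFP replicates 1, 2 and 3 and 3880 and 2424 with Rrp6 dsRNA, so the groups overlapped there. The mitochondrial sums overlapped in polyadenylated S2 RNA, at 578 and 477 with GFP and 535 and 444 with Rrp6 dsRNA. In S3 cells they overlapped in polyadenylated RNA, at 521, 564 and 632 in GFP replicates 1, 2 and 3 and 497 and 583 with Rrp6 dsRNA. In depleted S3 RNA the cytosolic sum was 4256 and 3383 with GFP and 3257 and 2621 with Rrp6 dsRNA, without overlap. The mitochondrial sum there was 526 and 625 with GFP and 612 and 653 with Rrp6 dsRNA, higher in each depth class. Single genes weighed on that sum, since 9 of the 14 mitochondrial changes were negative. In the deeper libraries AspRS-m stood at 147 with GFP and 299 with Rrp6 dsRNA. In the shallower ones GluRS-m stood at 7.02 with GFP and 65.3 with Rrp6 dsRNA. No test was made between the classes. In the annotation 11 of the 14 mitochondrial and 6 of the 17 cytosolic genes overlap another gene, and their values carry the same doubt over strand as TyrRS-m.

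With Csl4 or Rrp40 dsRNA, 0 of the 31 genes were called in any of the 6 comparisons by edgeR or DESeq2, and 0 had an unadjusted p of at most 0.05. Few other genes were called either: with Csl4 dsRNA 1.96% of all genes in polyadenylated S2, 0.24% in polyadenylated S3 and 2.16% in depleted S3 RNA, and with Rrp40 dsRNA 0.101, 0 and 0.217% in the same order. For Rrp40 in polyadenylated S3 RNA edgeR called 0 of 7923 genes, of which 437 had an unadjusted p of at most 0.05, and DESeq2 called 46 higher and 4 lower. The cytosolic median with Csl4 dsRNA was -0.05 in polyadenylated S2, -0.37 in polyadenylated S3 and -0.19 in depleted S3 RNA, and 16 of 17 cytosolic genes had a negative change in polyadenylated S3 RNA, beside a median of 0.00 over all genes. The mitochondrial medians were -0.03, -0.04 and 0.02. With Rrp40 dsRNA the medians were 0.00, -0.07 and 0.04 for cytosolic and 0.09, 0.06 and 0.18 for mitochondrial genes.

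TyrRS-m with Csl4 dsRNA changed by -0.48, -0.48 and -0.47 in the 3 sets and was called in 0 of them. It stood at 24.2 and 24.6 in the Csl4 libraries of polyadenylated S2 RNA and at 20.9 and 27.2 in those of polyadenylated S3 RNA, in both sets below all GFP libraries and above both Rrp6 libraries. The depleted S3 libraries overlapped, at 13.8 in the deeper and 37.3 in the shallower Csl4 library beside 22.2 and 28.1 with GFP. With Rrp40 dsRNA its level was 27.5 in the single polyadenylated S2 library and 29.2 and 43.5 in polyadenylated S3 RNA. ArgRS stood at 94.8 and 51.2 with Csl4 and 69.5 with Rrp40 dsRNA in polyadenylated S2 RNA, within the range of the GFP libraries except for the shallower Csl4 library.

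**Figure D4:**
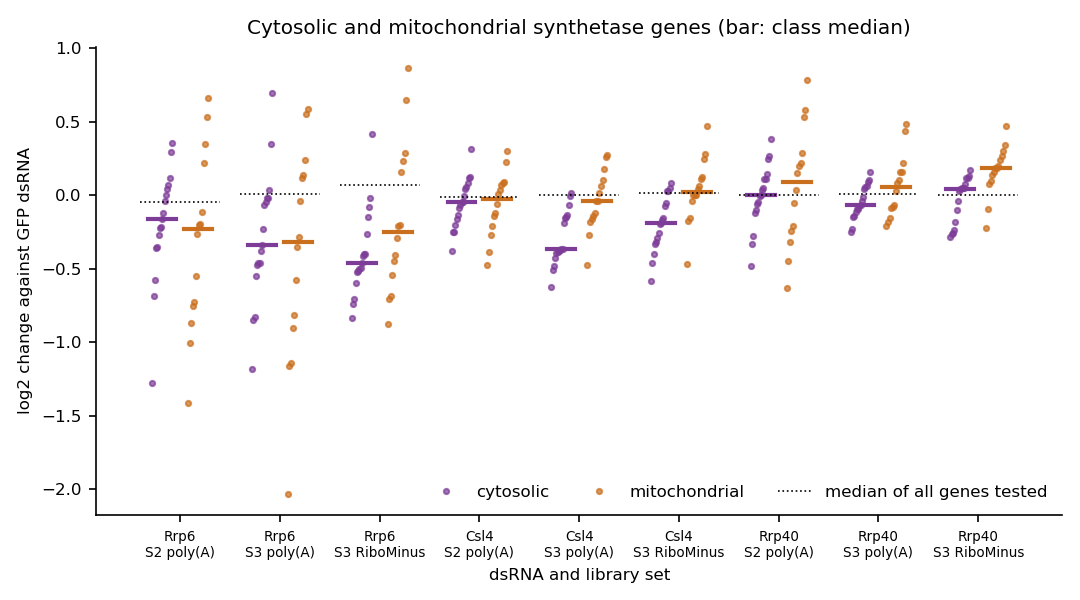
Log2 change against GFP dsRNA of each cytosolic (purple) and mitochondrial (orange) synthetase gene in 9 comparisons; coloured bars are class medians and dotted lines the median of all genes tested. With Rrp6 dsRNA the class medians lie from -0.46 to -0.16, below the dotted line in each set; with Rrp40 dsRNA they lie from -0.07 to 0.18.

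The difference between Rrp6 and Csl4 dsRNA was tested within each set, since both share the GFP libraries as their control. ArgRS was lower with Rrp6 than with Csl4 dsRNA in polyadenylated S2 RNA, by -0.90 ± 0.26 (edgeR adjusted p 0.0264), and TyrRS-m in polyadenylated S3 RNA, by -1.55 ± 0.34 (edgeR adjusted p 0.0202). These were the only synthetase calls in these contrasts, 1 of 31 in each polyadenylated set beside 5.48 and 7.27% of all genes called lower, and 0 in depleted RNA beside 0.422%. In depleted RNA 2 of 31 had an unadjusted p of at most 0.05, and DESeq2 called 0. The ArgRS call ended without either Csl4 library or the deeper Rrp6 library, as did the TyrRS-m call, and both ended without the depth block. TyrRS-m in polyadenylated S2 RNA differed by -0.94 ± 0.33 and was not called (edgeR adjusted p 0.0604).

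The response to Rrp6 dsRNA was also compared between lines and between RNA fractions in joint fits. The response in S3 minus that in polyadenylated S2 RNA passed the test for 0 of 31 synthetase genes, 0 of which had an unadjusted p of at most 0.05, beside 2.64% of 8984 genes. For TyrRS-m this difference was -0.60 ± 0.47 (edgeR adjusted p 0.624). The response in depleted minus that in polyadenylated RNA of S3 cells passed for 0 of 8721 genes (0%, edgeR), of which 366 had an unadjusted p of at most 0.05, and with no filter on low counts it passed for 5 genes higher and 40 lower, 0 of them synthetase genes. For TyrRS-m it was 1.09 ± 0.57 (edgeR adjusted p 1). DESeq2 was not run on the joint fits.

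Between the GFP libraries of the lines, 3 of the 31 genes differed in polyadenylated RNA. MetRS-m, which charges the mitochondrial methionine tRNA, was higher in S3 cells, at 83.4, 101 and 198 scaled RPM in replicates 1, 2 and 3 beside 20.7 and 39.4 in S2 replicates 1 and 3. LysRS, the cytosolic lysine enzyme, was lower, at 198, 190 and 114 beside 447 and 327, and LeuRS-m, the mitochondrial leucine enzyme, was lower, at 44.9, 43.8 and 22.0 beside 108 and 68.4. For all 3 genes the libraries of the lines did not overlap, although these levels were scaled within each line. In the joint fit the log2 differences, S3 minus S2, were 2.28 ± 0.39 for MetRS-m, -1.0 ± 0.23 for LysRS and -1.15 ± 0.23 for LeuRS-m (edgeR adjusted p 0.000422, 0.00392 and 0.00163). Of all 8984 genes 14.5% were called higher and 14.6% lower in S3 cells, beside 1 and 2 of the 31. All 3 calls ended without S2 GFP replicate 1, and without the depth block only MetRS-m was called. RLE scaling moved the median difference of all genes by -0.13 in this comparison and left these 3 calls in place. The annotation places CG43179 over MetRS-m.

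**Figure D5:**
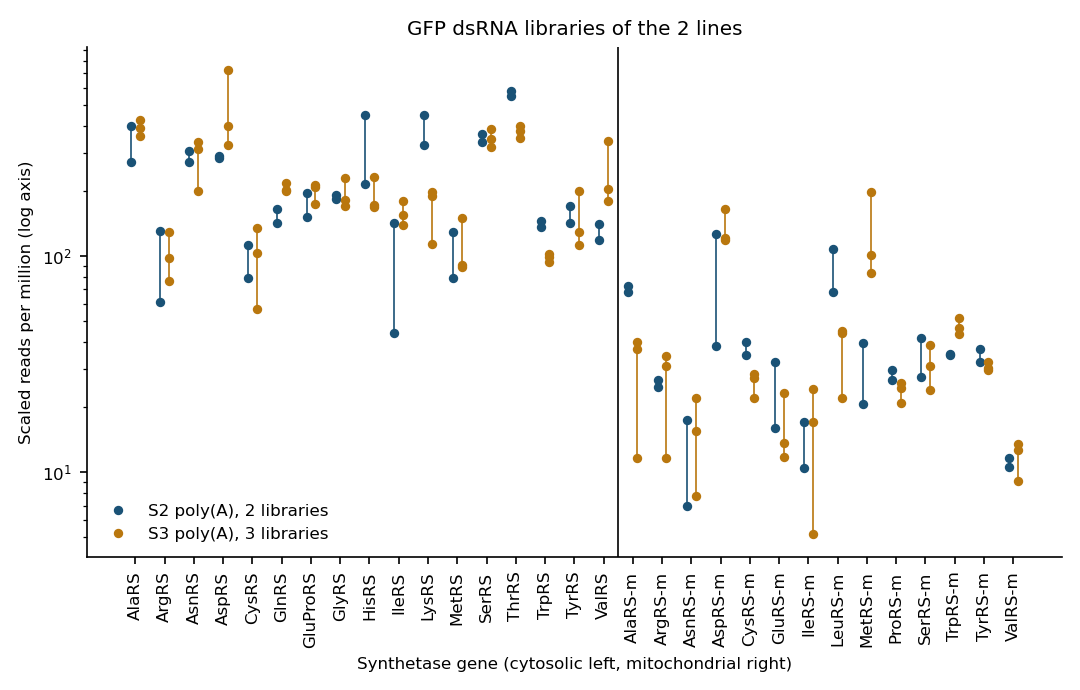
Scaled RPM (log axis) of each synthetase gene in the polyadenylated GFP libraries of S2 (blue, 2 libraries) and S3 cells (orange, 3 libraries), cytosolic genes left and mitochondrial genes right; levels were scaled within each line and do not account for gene length. MetRS-m lies higher in S3 (83.4 to 198) than in S2 cells (20.7 to 39.4), and LysRS and LeuRS-m lie lower.

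In depleted S2 RNA each group is 1 library of 67743 to 157282 reads, so values are given with no test. Genes with at least 10 reads over the 2 libraries compared were kept, and a ratio of at least 2-fold was counted. With Csl4 dsRNA 19 synthetase genes remained, of which 1 was 2-fold higher (TyrRS, 14 reads beside 6 with GFP) and 1 lower (TrpRS, 5 beside 11), where all genes gave 7.6% higher and 9.9% lower. With Rrp40 dsRNA 6 of 19 were lower (GluProRS, IleRS, SerRS, ThrRS, LeuRS-m and SerRS-m) and 0 higher, beside 31.6% lower and 2.16% higher of all genes. With Rrp6 dsRNA 3 of 17 were lower (AlaRS, AsnRS and IleRS) and 1 higher (CysRS), beside 27.6 and 7.63% of all genes. Rrp40 itself held 256724 RPM of the Rrp40 library and Rrp6 183565 of the Rrp6 library, and these reads are part of the totals that the values are divided by. The median log2 ratio of all genes was -0.72 with Rrp40 and -0.50 with Rrp6 dsRNA, beside -0.66 and -0.52 for the synthetases. AsnRS had 19 reads with GFP and 3 with Rrp6 dsRNA, 280 and 42.6 RPM, a ratio of 0.152 with an exact 95% counting interval from 0.0288 to 0.516.

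The authors' deposited tables, made with DESeq, gave an adjusted p of at most 0.05 to 0 of the 31 genes in 12 of 12 comparisons. In the authors' deposited table for Rrp6 in polyadenylated S3 RNA, TyrRS-m had a log2 change of -1.75, a p of 0.0151 and an adjusted p of 0.201, the lowest adjusted p of any synthetase gene. In the authors' deposited table for Rrp6 in polyadenylated S2 RNA, ArgRS changed by -1.26, with an adjusted p of 0.598. Over the 12 tables, 2 values had an unadjusted p of at most 0.05, the other being AsnRS in depleted S2 RNA with Rrp6 dsRNA (log2 -2.34, p 0.0466, adjusted p 1 in the authors' deposited table).

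Genes that act with the synthetases were followed in 8 lists of 50 genes, chosen by function. With Rrp6 dsRNA, 16.9, 16.4 and 7.35% of all genes were called lower in polyadenylated S2, polyadenylated S3 and depleted S3 RNA. The shares called higher were 20.2, 19.7 and 12.4%. Counts in lists this small are to be read beside these shares. The cytosolic phenylalanine enzyme has 2 kinds of subunit whose symbols are formed otherwise: its catalytic subunit alpha-PheRS fell by 1.22 ± 0.22 in polyadenylated S3 RNA with Rrp6 dsRNA (edgeR adjusted p 0.00285), and this call held with any library left out and without the depth block. With the other subunit beta-PheRS and the seryl-tRNA synthetase paralogue Slimp, 1 of 3 was called lower in each polyadenylated set and 0 in depleted RNA; the median changes were -0.41, -0.67 and -0.62 in polyadenylated S2, polyadenylated S3 and depleted S3 RNA. Of the 3 scaffold proteins of the multisynthetase complex (AIMP1, AIMP2 and AIMP3), 0, 2 and 1 were called lower in the same order, with medians of -0.52, -0.97 and -0.79. AIMP1 fell by 1.26 ± 0.42 in depleted S3 RNA (edgeR adjusted p 0.0199), a call that ended without the depth block and with DESeq2 or with the GFP and Rrp6 libraries alone. Of the 4 mitochondrial genes that amidate or formylate charged tRNA, 2 were tested, and 1 was called lower in each polyadenylated set and 0 in depleted RNA (medians -0.61, -0.95 and -0.26).

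Elongation factors, which bring charged tRNA to the ribosome and move it along the mRNA, went in both directions. Of 4 cytosolic factors tested in polyadenylated S2 RNA 3 were called lower and 1 higher, of 5 in polyadenylated S3 RNA 2 lower and 1 higher, and of 5 in depleted S3 RNA 2 lower and 0 higher (medians -0.64, -0.88 and -0.52). Subunits of the exchange factor complex that reloads eEF1A fell, eEF1delta by 1.06 ± 0.19 in S2 (edgeR adjusted p 0.000226), eEF1beta by 0.99 ± 0.21 and eEF1gamma by 1.2 ± 0.22 in polyadenylated S3 RNA (edgeR adjusted p 0.00587 and 0.00278). The translocase eEF2 rose by 0.91 ± 0.17 in polyadenylated S2 RNA (edgeR adjusted p 0.000357). These 4 calls held with any library left out, and all 4 ended without the depth block. The factor eEF1alpha2 rose by 2.40 ± 0.53 in polyadenylated S3 RNA (edgeR adjusted p 0.0075). Its call held without the depth block and ended without the deeper Rrp6 library. Of 6 mitochondrial translation factors 1 was called lower in each polyadenylated set and 0 in depleted RNA, with medians of -0.43, -0.22 and -0.02. These counts were near the shares of all genes called lower, 16.9, 16.4 and 7.35%.

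The GCN2 and ATF4 branch, in which uncharged tRNA activates the kinase GCN2 and the transcription factor ATF4 (crc in Drosophila), did not move in a single direction with Rrp6 dsRNA. Of 11 genes tested, 4 were called higher and 3 lower in polyadenylated S2, 2 and 2 in polyadenylated S3 and 1 and 1 in depleted S3 RNA, with medians of -0.31, -0.00 and 0.07. All genes gave 20.2, 19.7 and 12.4% called higher and 16.9, 16.4 and 7.35% lower. Shmt, the serine hydroxymethyltransferase of folate metabolism, was called lower in all 3 sets (-0.81 ± 0.21, -1.52 ± 0.30 and -1.31 ± 0.34; edgeR adjusted p 0.00374, 0.00389 and 0.00153). Those calls ended without the shallower Rrp6 library in S2, the deeper Rrp6 library in polyadenylated S3, and the deeper GFP or Rrp6 library in depleted S3 RNA; without the depth block, the S2 and depleted S3 calls ended too. In the GFP libraries PPP1R15, a phosphatase subunit that acts on eIF2alpha, was lower in S3 than in S2 cells by -1.4 ± 0.26 and Sesn, a stress-responsive sestrin, was higher by 2.24 ± 0.34 (edgeR adjusted p 0.000734 and 0.000159).

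Of 5 genes of RNA polymerase III transcription and tRNA maturation, 1, 4 and 2 were called higher with Rrp6 dsRNA and 0 lower. These counts are for polyadenylated S2, polyadenylated S3 and depleted S3 RNA, with medians of 0.24, 0.85 and 0.43. The shares of all genes called higher were 20.2, 19.7 and 12.4%, so the S2 count was near that share. RtcB, the ligase that joins tRNA exons after intron removal, rose by 1.35 ± 0.22 in polyadenylated S2 RNA (edgeR adjusted p 5.95e-05), and La, which binds the 3′ end of new RNA polymerase III transcripts, by 1.4 ± 0.28 in depleted S3 RNA (edgeR adjusted p 2.25e-05). Both calls held with any library left out and ended without the depth block. The 4 calls in polyadenylated S3 RNA were less steady. Of 9 libraries left out in turn, 9 ended the call of Bdp1, 3 that of RtcB, 2 that of La and 1 that of RNaseZ. The RtcB call in depleted S3 RNA ended with 7 of 8 libraries. All of these calls also ended without the depth block. Of 5 hemocyte markers tested with Rrp6 dsRNA, 1 was called lower in polyadenylated S2, 2 in polyadenylated S3 and 0 in depleted S3 RNA. For all genes the shares called lower were 16.9, 16.4 and 7.35%, and 0 markers were called higher. The summed level of the 6 markers was 570 to 1217 in GFP and 538 to 780 in Rrp6 libraries of polyadenylated S2 RNA. It was 2823 to 3406 and 1398 to 2143 in polyadenylated S3, and 2169 to 5431 and 2136 to 3632 in depleted S3 RNA. In polyadenylated S3 RNA Pxn held 2210 to 2629 of the sum with GFP, and 784 and 1424 with Rrp6 dsRNA. There srp stood at 439 to 603 with GFP and at 501 and 573 with Rrp6 dsRNA. The part of the markers in the synthetase changes was not tested. In the GFP libraries 2 of the 6 markers, Pxn and srp, were higher in S3 than in S2 cells, by 2.62 ± 0.40 and 1.72 ± 0.28 (edgeR adjusted p 0.000159 and 0.000293). Among all genes 14.5% were called higher and 14.6% lower in that comparison. Hml was lower, by -2.29 ± 0.42 (edgeR adjusted p 0.000801), a call that ended without S2 GFP replicate 1 or without the depth block.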

How the data were processed

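The deposited tables, 12 in number, each compare a knockdown with GFP dsRNA; they hold group means and DESeq comparisons rather than the expected count table. Per the file headers, the means are the signal in normalized reads per gene, and the log2 fold ratio, the p-value and the adjusted p-value of each gene come from the authors' DESeq test (local fit, fit-only sharing, dispersion per condition or, with 1 library a group, blind). Per the submitters' processing notes, the tools named are CASAVA 1.8, cutadapt 1.0, TopHat 1.4.1, HTSeq 0.5.3p9, DESeq 1.9.11 and the dm3 genome. Reads of each library were recovered from the means as whole multiples, for 15065 of 15065 genes in each column. The 5 HTSeq summary rows, 80.3 to 91.9% of all reads, were left out of library sizes and tests.

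Each library set was fitted with edgeR 4.0.16 (R 4.3.3; filterByExpr, TMM, quasi-likelihood test, Benjamini-Hochberg adjustment) with group and depth class as terms. Pairing by depth class came from the data: deviations of same-class libraries correlated at 0.65 to 0.68 over 3 pairs of groups in S2, 0.35 to 0.61 over 6 in polyadenylated S3 and 0.25 to 0.35 over 6 in depleted S3 RNA. In polyadenylated S3 RNA a depth class is not 1 replicate: the deeper class holds both GFP replicates 1 and 2. By the file headers, the Csl4 and Rrp6 libraries there are replicates 1 and 3 and the Rrp40 libraries 2 and 3. GFP replicate 2 thus has no Rrp6 library of its own replicate. The block was chosen in earlier work after counts with and without it were seen, and the synthetase genes and lists were chosen with earlier results of these data known. The single Rrp40 library of polyadenylated S2 RNA was assumed to vary like the other groups. The labels call libraries biological replicates. The standard error is the size of the log2 change divided by the square root of F. The recovery of reads and the test were tested on simulated data. For Rrp6 dsRNA, the test called 46.0, 24.2 and 12.8% of simulated 2-fold changes in polyadenylated S2, polyadenylated S3 and depleted S3 RNA. A gene that was not called may therefore still have changed 2-fold.

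By the rule set for naming, any synthetase gene may be named; per-library values are given for up to 5 higher and 5 lower called genes of each comparison by size of change, for those called in all comparisons of a knockdown, and for those passing a difference between knockdowns, and list genes may be named where called. Further genes given per library, and the choice among called list genes, were taken after their values were seen. Gene symbols were found for 14085 of 15065 identifiers. Alternatives were no block, RLE scaling, no filter, DESeq2 1.42.0, the libraries of the comparison alone, and each library left out. Intervals on single libraries are exact at 95% and cover counting error only. Levels per coding length, which the naming rule also used, and promoter motifs were not analysed here, and peak lists were not used.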

Additional observations from a re-analysis of the deposited data

How the results depend on the processing

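Without the replicate block, the number of the 31 genes called with Rrp6 dsRNA went from 6 to 0 in polyadenylated S2, from 5 to 1 in polyadenylated S3 and from 2 to 0 in depleted S3 RNA; the Rrp6 minus Csl4 counts went from 1 to 0 in both polyadenylated sets, and the GFP difference between lines from 3 to 1. Over all genes the calls with Rrp6 dsRNA then numbered 9 higher and 0 lower, 664 and 412, and 15 and 0. DESeq2 called 2, 7 and 0 with Rrp6 dsRNA and 0, 1 and 0 for Rrp6 minus Csl4. RLE scaling gave 4, 7 and 0 and the GFP difference 4, no filter 8, 7 and 2, with 2 for Rrp6 minus Csl4 in polyadenylated S3 RNA and 4 for the GFP difference, and the libraries of the comparison alone 5, 5 and 0. Leaving out each library in turn gave 1 to 8, 2 to 14 and 0 to 3 with Rrp6 dsRNA, 0 to 2, 0 to 7 and 0 to 0 for Rrp6 minus Csl4, 0 to 7 for the GFP difference and 0 to 1 for the difference in response between lines; these last 2, from the joint fits, were chosen after seeing the data. The cause of these changes was not tested.

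Of 18 called changes of the synthetase genes, 2 kept their call without the block, 14 with RLE scaling, 18 without the filter, 8 of 15 with DESeq2 and 10 of 13 with the libraries of the comparison alone; 2 kept it with every library left out, and every alternative value computed for them had the same direction. Of 65 called changes of list genes, 10 kept their call without the block, 62 with RLE scaling, 59 without the filter, 43 of 54 with DESeq2 and 12 with every library left out. Their direction was the same in 868 of 869 alternative values; the exception was Thor in depleted S3 RNA, at -0.27 without the deeper Rrp6 library. The median log2 change of all genes with Rrp6 dsRNA was -0.05 and 0.01 in polyadenylated S2 and S3 RNA, and with no filter it stood at 0.23 and 0.27; with DESeq2 it stood at 0.27 in S3 cells. Rrp40 in polyadenylated S2 RNA could not be fitted on its own and the GFP libraries alone, since no residual degrees of freedom remain. The mitochondrial genes held fewer reads than the cytosolic ones: in depleted S3 RNA a shallow library held 1 read of TyrRS-m. The part of depth in their calls was not tested.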
